A study of Homo sapiens with 6 samples.

Results

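The genes described here handle cholesterol after it has been made or taken up, and comprise the efflux transporters ABCA1 and ABCG1, their acceptor APOE, the liver X receptors (LXRs) NR1H3 and NR1H2, the late endosomal proteins NPC1 and NPC2, the esterifying enzyme SOAT1, the oxysterol-producing enzyme CH25H and the oxysterol-binding protein OSBP. They were chosen by gene symbol, and all 10 were found among the 33900 genes of the deposited table. The samples were LX-2 cells, an immortalised line of human hepatic stellate cells, labelled wild type and grown in DMEM with 10% fetal bovine serum. In 3 samples the cells received recombinant human Sema3C (rhSema3C), a secreted semaphorin, at 300 ng/ml for 48 h, and in 3 control samples they received PBS for the same time. The question was whether genes of sterol export and storage moved with or against those of sterol synthesis when rhSema3C was compared with PBS.

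Cells hold free cholesterol within narrow limits. When sterol in the endoplasmic reticulum is low, SREBP transcription factors switch on synthesis and uptake. When it is high, oxysterols bind the LXRs, which pair with a retinoid X receptor (RXR) and switch on ABCA1 and ABCG1. Cholesterol taken up with lipoproteins leaves the late endosome through NPC2 and NPC1, and an excess is esterified by SOAT1 and stored in droplets. In hepatic stellate cells, storage and export of lipid are of interest because quiescent cells carry lipid droplets that are lost on activation.

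Total counts on genes ranged from 68267808 to 89245585 per sample. Mitochondrial genes took 4.75% to 5.42% of the counts in the PBS samples and 3.73% to 3.93% in the rhSema3C samples. Of 12 stellate cell markers, 8 had a mean level of at least 0.5 FPKM (fragments per kilobase of transcript, scaled by the authors to library size), with a summed level of 1520 to 1570 FPKM in the PBS samples and 1200 to 1270 in the rhSema3C samples. VIM gave most of that sum, at a mean of 1035 FPKM in PBS and 834 in rhSema3C samples. Of the 8 markers, 7 were called lower with rhSema3C and 0 higher by edgeR's adjusted p of 0.05, and PDGFRB did not pass. Of all 14178 genes tested, 30.6% were called lower and 31.7% higher. The markers had a median log2 fold change of -0.42, against 0.02 over all genes tested. The falls included THY1 at -0.96, COL1A1 at -0.78 and ACTA2 at -0.56, named after their values were seen. By quantitative PCR, the paper reports that rhSema3C raised ACTA2 and COL1A1 mRNA in LX-2 cells, which is the opposite direction. It also reports more α-SMA (encoded by ACTA2) and collagen I protein in these cells. The reason for this difference was not tested. Among the 12 markers PDGFRA (mean 0.138 FPKM), COL1A2 (mean 0.109 FPKM), DES (mean 0.0252 FPKM) and LRAT (mean 0.00095 FPKM) were near 0. The macrophage markers, listed because ABCA1 and APOE are abundant in macrophages, summed to 4.78 to 5.8 FPKM in PBS and 3.18 to 3.59 FPKM in rhSema3C samples. CD14 gave most of that sum, while PTPRC, CD163 and MARCO had means of 0.0044, 0.0060 and 0.0191 FPKM. Hepatocyte markers summed to 2.65 to 3.18 FPKM in PBS and 3.52 to 4.16 FPKM in rhSema3C samples, and endothelial and bile duct markers to 2.56 to 4.05 and 3.79 to 4.44 FPKM. In bulk RNA, a change in the number of cells of one kind and a change in RNA per cell cannot be told apart, and the part of these marker differences in the results below was not tested.

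Per transcript length, the endosomal pair was the most abundant of the 10 genes and ABCG1 the least. In the PBS samples the order by mean FPKM was NPC2 (50.3 ± 1.49, SD, n = 3), NPC1 (32.2 ± 1.36), NR1H2 (26.9 ± 1.46), OSBP (22.2 ± 0.962), APOE (19.9 ± 1.21), SOAT1 (12.0 ± 0.156), ABCA1 (3.20 ± 0.16), NR1H3 (1.26 ± 0.109), CH25H (0.254 ± 0.0607) and ABCG1 (0.209 ± 0.0378). The PBS samples of neighbours in this order did not overlap, except for OSBP with APOE and CH25H with ABCG1. In the rhSema3C samples NPC1 came before NPC2, at 61.2 ± 1.29 against 49.7 ± 1.46 FPKM, and OSBP came before NR1H2 with overlapping samples. ABCA1 stayed in the same place in the order but reached 12.0 ± 0.37 FPKM, close to the PBS level of SOAT1. NR1H2, which encodes the widely expressed LXRβ, was far above NR1H3, which encodes LXRα. The FPKM ratio of NR1H2 to NR1H3 was 21.6 ± 2.9 in PBS and 18.3 ± 2.48 in rhSema3C samples (SD, n = 3 per group; two-sided exact permutation test, p = 0.2).

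**Figure D1:**
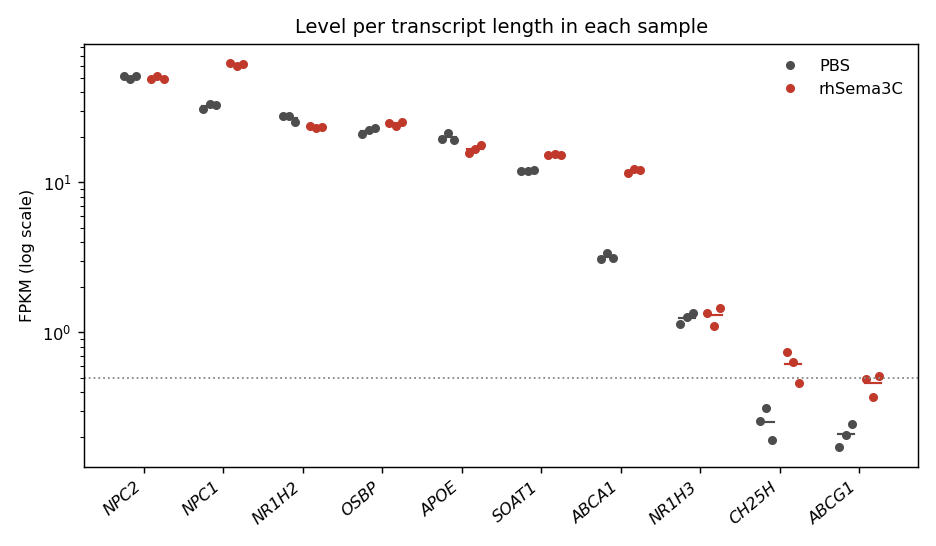
FPKM of each gene on a log axis, with 3 PBS samples in grey and 3 rhSema3C samples in red, a bar at each group mean, and a dotted line at 0.5 FPKM. The largest displacement between groups is that of ABCA1, from 3.20 to 12.0 FPKM, and CH25H and ABCG1 lie around or under the dotted line.

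For the comparison between groups, counts were scaled by library size and TMM factors to CPM and tested with edgeR's quasi-likelihood test, with Benjamini-Hochberg adjustment over 14178 genes that had a mean of at least 0.5 FPKM over the 6 samples. Of the 10 genes, 8 passed this filter. ABCA1, NPC1 and SOAT1 passed an adjusted p of 0.05 as higher with rhSema3C, NR1H2, APOE and NPC2 passed it as lower (NPC2 turned to higher on values rescaled to TPM), and NR1H3 and OSBP did not pass. Across all genes tested, 31.7% were called higher, 30.6% lower and 62.3% either way, so 3 of 8 in each direction was close to the background. The share of all calls that were higher was 50.9% with TMM scaling, 62.2% with library size alone, 61.2% to 61.3% with limma on FPKM and 74.1% with limma on TPM. Their log2 fold changes had a median of 0.0018, beside 0.02 over all genes tested. By size of change, 99.5% of the genes tested had a smaller log2 fold change than ABCA1, and 93.9% had a smaller one than NPC1. Against the thresholds named in the study's methods (a 2-fold change with an unadjusted p of 0.05), ABCA1 was the 1 gene of the 8 called higher, where 3.42% of all genes tested were, and 0 of the 8 were called lower, where 2.12% were. Replicates are labelled as biological, but no source says whether they were separate cultures, so p-values measure only the spread between these samples, which may be technical.

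**Figure D2:**
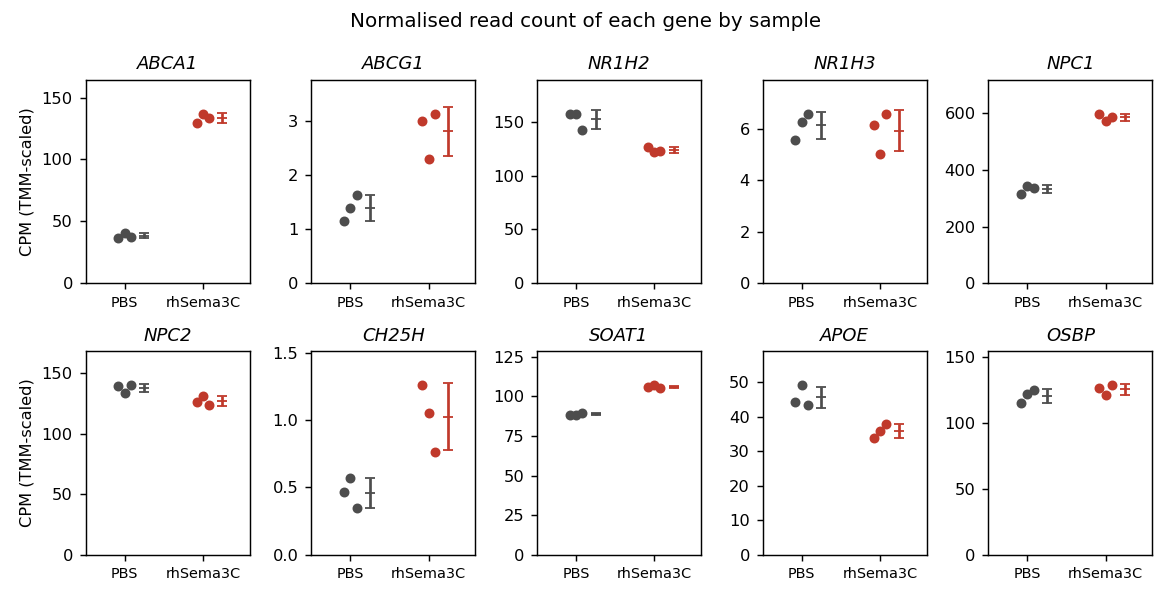
TMM-scaled CPM of each gene in 3 PBS (grey) and 3 rhSema3C (red) samples, with the group mean ± SD beside the points and each axis starting at 0. ABCA1 goes from 38.3 to 133 CPM and NPC1 from 332 to 587 CPM, while the points of NR1H3 and of OSBP overlap between the groups.

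ABCA1 (ENSG00000165029) exports cholesterol and phospholipid to lipid-poor apolipoproteins and is the best known LXR target. It lies on chromosome 9 of GRCh38 from 104781006 to 104928155, on the minus strand, and no exon of another gene in GENCODE 29 overlaps its exons. Its normalised read count was 36.6, 40.7 and 37.6 CPM in the PBS samples and 129, 137 and 134 CPM in the rhSema3C samples. The lowest treated sample was thus above the highest control sample by more than the whole spread of either group. The means were 38.3 ± 2.11 and 133 ± 3.91 CPM (SD, n = 3 per group). That is 3.48-fold, or 1.80 ± 0.05 (SE) in log2 units, with an adjusted p of 8.9e-10 in the edgeR fit. By fold change ABCA1 ranked 68 among the genes with a positive change, and by p-value it ranked 13. With another scaling, filter, tool or unit, or with a sample left out, its log2 fold change stayed between 1.63 and 1.94.

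The sequence upstream of ABCA1 is shown because its LXR element can be read in it, and that of NPC1 because NPC1 rose as well. Both are the 250 bases before the start site given by RefSeq on GRCh38.p14, on the strand of the gene, which is the minus strand for both, at chr9:104928156-104928405 and chr18:23586507-23586756. The RefSeq start of NPC1 lies upstream of the interval given for the gene in the deposited table. Capitals mark matches to 2 motifs searched on both strands, with no overlap between matches.
ABCA1: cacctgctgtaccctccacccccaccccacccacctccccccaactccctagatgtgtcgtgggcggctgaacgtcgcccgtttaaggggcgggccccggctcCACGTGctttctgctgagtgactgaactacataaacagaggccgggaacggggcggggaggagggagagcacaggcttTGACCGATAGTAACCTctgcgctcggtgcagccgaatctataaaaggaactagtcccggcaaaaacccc
NPC1: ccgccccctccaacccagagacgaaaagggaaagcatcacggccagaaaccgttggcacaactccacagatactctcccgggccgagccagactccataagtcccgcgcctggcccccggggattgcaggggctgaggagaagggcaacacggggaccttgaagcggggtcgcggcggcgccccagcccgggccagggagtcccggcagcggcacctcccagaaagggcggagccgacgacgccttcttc

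The motifs were DR4, the direct repeat bound by LXR with RXR (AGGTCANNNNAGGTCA, at most 2 mismatches in its 12 fixed letters), and the E-box, bound by helix-loop-helix factors (CACGTG, no mismatch). DR4 was searched with the known element of ABCA1 in mind. It matched from -69 to -54 before the ABCA1 start, where the other strand reads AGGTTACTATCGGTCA, with 2 mismatches. An E-box lay from -147 to -142. Among 35116 windows of all genes in the same table, 2.03% held a DR4 match and 6.34% an E-box. RefSeq windows were found for 9 of the 10 genes, 15 windows in all, and ABCG1 had no entry. DR4 and the E-box each matched 1 of the 15 windows, that of ABCA1. These matches are descriptions of the letters, and binding was not measured.

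ABCG1 (ENSG00000160179, chromosome 21 from 42199689 to 42297244) passes cholesterol to mature high density lipoprotein and is a second LXR target. It had few reads, with 98, 97 and 107 counts in the PBS samples and 259, 210 and 262 in the rhSema3C samples, and a mean under the filter. Scaled to library size these were 1.14, 1.39 and 1.62 CPM against 2.99, 2.28 and 3.13 CPM, and the groups did not overlap. When all 33900 genes were tested, where 12.5% were called higher, the log2 difference of ABCG1 was 1.01 ± 0.22 (SE; edgeR, adjusted p = 0.00726). With each sample left out in turn in that fit, the log2 fold change stayed between 0.89 and 1.16. ABCA1 stood 15.6 ± 2.62 times above ABCG1 in FPKM in PBS samples and 26.7 ± 5.45 times in rhSema3C samples (SD, n = 3 per group; exact permutation test, two-sided, p = 0.1, which is the lowest that 3 against 3 allows).

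APOE (ENSG00000130203, chromosome 19 from 44905791 to 44909393), an apolipoprotein that accepts exported cholesterol and is also an LXR target, moved the other way. Its normalised read count was 44.3, 49.0 and 43.4 CPM in the PBS samples and 33.7, 35.7 and 37.7 CPM in the rhSema3C samples. All treated samples were below all control samples. It fell by 0.35 ± 0.07 (SE) on the log2 scale, from 45.6 ± 3.02 to 35.7 ± 2.02 CPM (SD, n = 3 per group; edgeR, adjusted p = 0.00101). On values rescaled to TPM, the log2 fold change was -0.12 and did not pass (limma, adjusted p = 0.13). ABCA1 and APOE, both named LXR targets, thus differed in direction in the same samples.

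Of the LXRs, NR1H2 fell and NR1H3 did not pass the test. NR1H2 (ENSG00000131408, chromosome 19 from 50329653 to 50383388) had 157, 158 and 142 CPM in the PBS samples and 126, 122 and 123 CPM in the rhSema3C samples, with no overlap. It fell by 0.30 ± 0.05 (SE) on the log2 scale (edgeR, adjusted p = 2.3e-04). On values rescaled to TPM the log2 fold change was -0.07 (limma, adjusted p = 0.219). NR1H3 (ENSG00000025434, chromosome 11 from 47248300 to 47268845), which is itself an LXR target in some human cells, had 5.56, 6.28 and 6.60 CPM in PBS and 6.16, 5.04 and 6.57 CPM in rhSema3C samples, so that the groups overlapped. Its log2 difference was -0.05 ± 0.14 (SE; edgeR, adjusted p = 0.766), with a sign that turned when rhSema3C replicate 2 was left out (0.06), with library size alone as the scaling (0.05) and on FPKM or TPM values (0.03 to 0.14). Of its exon bases, 4.17% are shared with ACP2 on the other strand.

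NPC1 and NPC2 hand cholesterol out of the late endosome one after the other, and NPC1 rose while the call of NPC2 depended on the setting. NPC1 (ENSG00000141458, chromosome 18 from 23506184 to 23576947), the membrane protein of the pair, had 315, 344 and 337 CPM in the PBS samples and 599, 573 and 587 CPM in the rhSema3C samples. Every treated sample was well above every control sample. The means were 332 ± 14.9 and 587 ± 13.0 CPM (SD, n = 3 per group). NPC1 thus rose 1.77-fold, or by 0.82 ± 0.04 (SE) in log2 units, with an adjusted p of 7.0e-08 in edgeR. RMC1 on the other strand shares 5.98% of the exon bases of NPC1, and reads of both genes cannot be separated there unless the counting used strand.

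NPC2 (ENSG00000119655, chromosome 14 from 74476192 to 74493347), the soluble protein that passes sterol to NPC1, had 139, 134 and 140 CPM in PBS samples and 126, 131 and 124 CPM in rhSema3C samples. The groups did not overlap, but the difference was small. It fell by 0.12 ± 0.04 (SE) on the log2 scale (edgeR, adjusted p = 0.0279). This call was lost when PBS replicate 1, PBS replicate 3, rhSema3C replicate 1 or rhSema3C replicate 3 was left out (adjusted p = 0.0708, 0.0765, 0.0705 and 0.137) and under the replicate block (adjusted p = 0.0835). With library size alone the log2 fold change was -0.01 (adjusted p = 0.849), and with values rescaled to TPM it was 0.11 and passed as higher (limma, adjusted p = 0.0324). The call was also lost with no filter (adjusted p = 0.051), with a mean FPKM of at least 5 (0.742) and with limma on FPKM at a pseudocount of 1 or 0.1 (0.759 and 0.76). The FPKM ratio of NPC2 to NPC1, which no scaling between samples can alter, was 1.66, 1.46 and 1.56 in the PBS samples and 0.791, 0.860 and 0.791 in the rhSema3C samples (two-sided exact permutation test, p = 0.1). In FPKM the pair thus went from more NPC2 than NPC1 to less in all 3 treated samples. That order depends on the transcript lengths used for FPKM. In CPM, which is not divided by length, NPC1 was above NPC2 in both groups. The means were 332 against 138 CPM in PBS and 587 against 127 CPM in rhSema3C samples. The fall of the ratio between groups does not depend on these lengths, but which gene had more transcripts was not settled.

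SOAT1 (ENSG00000057252, chromosome 1 from 179293714 to 179358677) encodes the acyltransferase that turns free cholesterol into its ester for storage. Its normalised read count was tightly grouped, at 88.5, 88.5 and 89.8 CPM in the PBS samples and 106, 107 and 105 CPM in the rhSema3C samples. The groups did not overlap, with a modest distance between them. SOAT1 rose 1.19-fold, or by 0.25 ± 0.04 (SE) in log2 units (edgeR, adjusted p = 1.7e-04), and this value stayed between 0.24 and 0.47 in all other settings. Its paralogue SOAT2 had a mean of 0.0037 FPKM.

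CH25H (ENSG00000138135, chromosome 10 from 89205629 to 89207317) makes 25-hydroxycholesterol, an LXR ligand that also restrains SREBP processing, and is known as an interferon and inflammation response gene. It had 40, 40 and 23 counts in the PBS samples and 109, 97 and 64 in the rhSema3C samples. At this depth each sample rests on few reads, and rhSema3C replicate 3 was nearer to the controls than the other two. When all 33900 genes were tested, its log2 difference was 1.13 ± 0.33 (SE; edgeR, adjusted p = 0.0339). The call was lost when PBS replicate 1, PBS replicate 3, rhSema3C replicate 1 or rhSema3C replicate 2 was left out (adjusted p = 0.0847, 0.0929, 0.109 and 0.0795) and under the replicate block (adjusted p = 0.0558). Over all fits without the filter, including those where the call held, the log2 fold change of CH25H was between 0.96 and 1.33.

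OSBP (ENSG00000110048, chromosome 11 from 59574398 to 59615774) exchanges sterol for a phosphoinositide at contacts between the endoplasmic reticulum and the Golgi. It had 115, 122 and 125 CPM in PBS samples and 127, 121 and 128 CPM in rhSema3C samples, and the groups overlapped. Their log2 difference was 0.06 ± 0.05 (SE; edgeR, adjusted p = 0.3). With library size alone it was 0.16 and passed (adjusted p = 0.00847), since that scaling moves the median of all genes tested by 0.11 on the log2 scale.

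Of the 8 genes tested, 3 had all rhSema3C samples above and 3 had all below the PBS samples in CPM, where 34.6% of all genes tested had them above and 33.3% below. The genes nearest to ABCA1 and NPC1 in pattern were those with the smallest root mean square difference of centred log2 CPM over the 6 samples. For ABCA1 these were ACSS2 (difference 0.0543, log2 fold change 1.86), MTHFD2 (0.0566 and 1.77) and ITPR1 (0.0715 and 1.82). For NPC1 they were RAD52 (0.0337 and 0.91), UHRF1BP1 (0.0337 and 0.79) and ULK4 (0.0355 and 1.07).

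Sterol synthesis was set beside these genes with 20 enzymes of the pathway, all of which were tested. By edgeR's adjusted p of 0.05, 16 enzymes rose and 3 fell, where 31.7% and 30.6% of all genes tested did, with a median log2 fold change of 0.83 against 0.02 over all genes tested. The changes ranged from -0.43 for PMVK, which phosphorylates mevalonate phosphate, to 2.24 for HMGCS1, which makes HMG-CoA. ABCA1 lay inside the upper part of that range, below HMGCS1 and above MSMO1, a sterol demethylating enzyme named after its value was seen (1.44 ± 0.06 in log2 units, SE). NPC1 was at the level of the enzyme median, SOAT1 was under every enzyme that was called higher, and APOE and NR1H2 lay between PMVK and MVK, a kinase named after its value was seen, which fell by 0.18 on the log2 scale. At the RNA level, ABCA1, NPC1 and, by less, the storage enzyme SOAT1 therefore moved in the same direction as most synthesis enzymes. APOE and NR1H2 moved against them. Export, endosomal release and storage of sterol themselves are not measured by these RNA data.

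**Figure D3:**
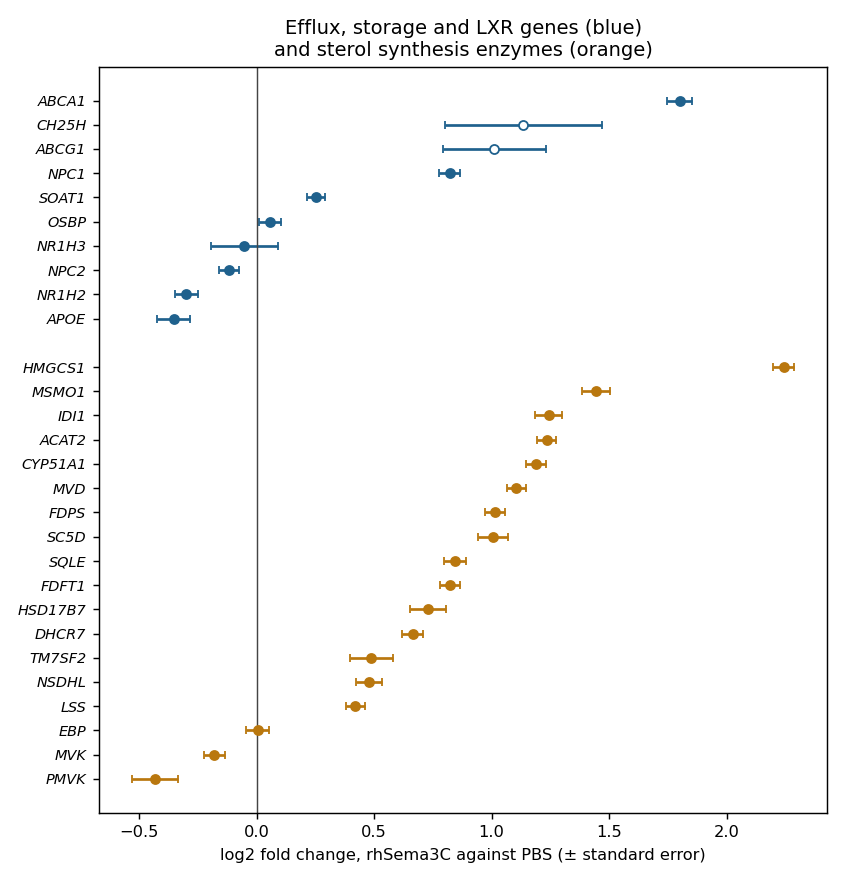
Log2 fold change of rhSema3C against PBS with its standard error, for the 10 efflux, storage and LXR genes (blue) and the sterol synthesis enzymes reported here (orange), each sorted by size. Open points are ABCG1 and CH25H, fitted with all 33900 genes, and ABCA1 at 1.80 lies between HMGCS1 at 2.24 and MSMO1 at 1.44.

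Ratios between 2 genes of the same sample do not depend on the scaling between samples. The CPM ratio of ABCA1 to HMGCS1 was 0.130, 0.151 and 0.138 in the PBS samples and 0.102, 0.101 and 0.105 in the rhSema3C samples. All treated samples were below all control samples, with p = 0.1 in the two-sided exact permutation test and 0.117 after Benjamini-Hochberg adjustment over the 7 ratios computed, neither of which passed 0.05. The same adjusted value held for NPC2 to NPC1 and for ABCA1 to ABCG1, and that for NR1H2 to NR1H3 was 0.2.

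The wider set of LXR target genes was followed to see whether ABCA1 moved with others. Of 18 genes listed, 17 were in the table and 11 were tested, of which 7 rose and 2 fell, beside 31.7% and 30.6% of all genes tested, with a median log2 fold change of 0.22 against 0.02. The largest rise was that of ABCA1, followed by FASN (1.47), SCD (1.34) and SREBF1 (0.86), which make or desaturate fatty acids or drive these genes and are SREBP targets as well. Also higher, and named after their values were seen, were MYLIP (0.85), a ubiquitin ligase for the LDL receptor, and PLTP (0.16; edgeR, adjusted p = 0.0476), a phospholipid transfer protein. LPCAT3, which remodels phospholipids, fell most, by 0.40 on the log2 scale, and APOE was the other fall. Leaving out 1 sample at a time gave 5 to 7 genes higher and 2 lower in this list.

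Of 8 genes for RXRs and nuclear receptor coregulators, 7 were tested, 4 of them higher and 3 lower, beside 31.7% and 30.6% of all genes tested, with a median of 0.26 against 0.02. The largest rise was that of the coactivator NCOA3 (0.47). NCOA1 and NCOA2, coactivators of the same family, were at 0.26 and 0.36, and the LXR partners RXRA and RXRB fell by 0.50 and 0.22 on the log2 scale. NCOA1, NCOA2, RXRA and RXRB were named after their values were seen. Not all genes called higher in this list were coactivators.

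Of 13 genes for sterol efflux and ester turnover, 10 were tested, 3 of them higher and 5 lower, where 31.7% and 30.6% of all genes tested were, and the median was -0.17 against 0.02. LIPA, the lysosomal lipase that frees cholesterol from lipoprotein esters upstream of NPC2 and NPC1, rose most (from 122 ± 7.58 to 231 ± 3.02 CPM, SD, n = 3 per group, log2 fold change 0.92). PLIN3, a droplet coat protein that also sorts lysosomal receptors, fell most, from 166 ± 5.37 to 86.6 ± 0.82 CPM (log2 fold change -0.93). Not all droplet coat genes of this list were lower. The count of lower genes in this list depended on the scaling, with 3 for library size alone and 1 for values rescaled to TPM.

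Of 22 genes for proteins that carry sterol between membranes, 20 were tested, 11 of them higher and 3 lower, beside 31.7% and 30.6% of all genes tested, and the median was 0.19 against 0.02. Whether the list differed from other genes was not tested. STARD4, a soluble carrier of sterol that is an SREBP target, rose most (1.04 ± 0.06 in log2 units, SE), and STARD3, a late endosomal sterol carrier, fell most, by 0.40 on the log2 scale. Among 10 genes of SREBP control and lipoprotein uptake, 7 were higher and 3 lower, with a median of 0.45, read beside the same shares of all genes. Of 7 enzymes listed for oxysterol and bile acid routes, 3 were tested and 2 were lower, where 30.6% of all genes tested were. HSD3B7, an enzyme of bile acid synthesis, fell by 0.69 on the log2 scale. EPHX1, an epoxide hydrolase named after its value was seen, fell by 0.54 on that scale.

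**Figure D4:**
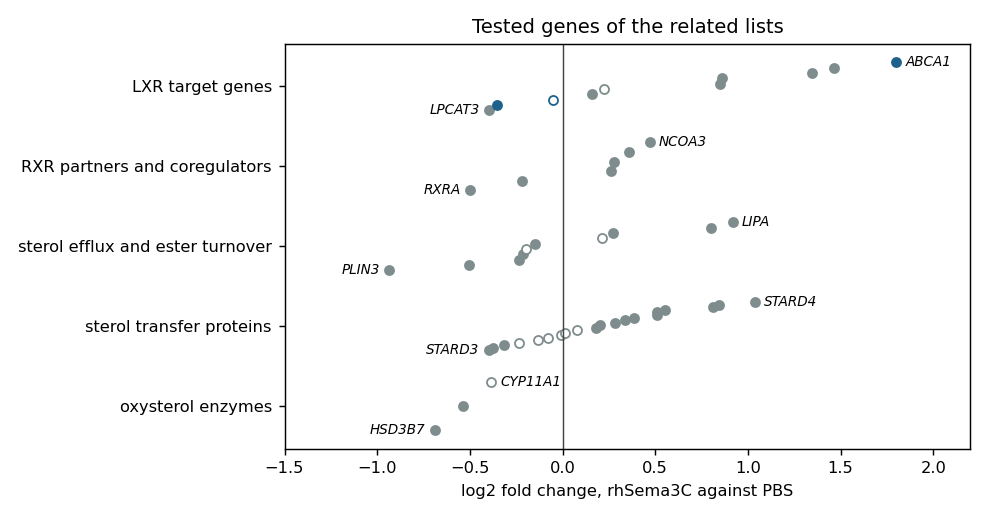
Log2 fold change of rhSema3C against PBS for the tested genes reported here of 5 related lists, with open points for genes that did not pass an adjusted p of 0.05 and blue points for genes among the 10 described here. The lists spread to both sides of 0, from PLIN3 at -0.93 to ABCA1 at 1.80.

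The log2 fold changes of ABCA1, NPC1, SOAT1 and OSBP were above 0 in every setting tried, and those of NR1H2 and APOE below 0. NR1H3 and NPC2 took both signs. ABCG1 and CH25H were above 0 in every fit of counts without the filter, but were not fitted with limma on FPKM or TPM.

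**Figure D5:**
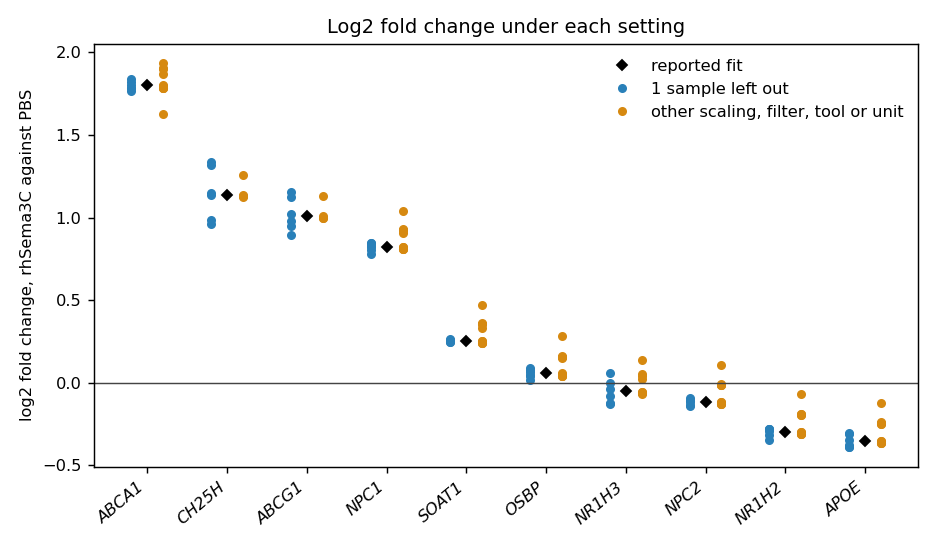
Log2 fold change of each gene in the reported fit (black), with 1 sample left out (blue) and with another scaling, filter, tool, unit or a replicate block (orange). ABCA1 stays between 1.63 and 1.94 and NPC1 between 0.78 and 1.04, and points of NR1H3 and NPC2 fall on both sides of 0.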

How the data were processed

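Libraries were made from total RNA with an mRNA kit (per the labels) and sequenced on an Illumina NovaSeq instrument. The table that the authors deposited gives, per gene and sample, a raw count in whole numbers and an FPKM value that they had already divided by transcript length and library size. The methods name Cufflinks and cuffmerge for the authors' comparison. The aligner, strand setting and build are not given in the sources used here, but 32872 of 32887 gene IDs shared with GENCODE 29 (GRCh38) overlapped the same interval. All 12 columns of sample values were used.

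The counts were tested with edgeR's quasi-likelihood test and TMM factors (0.958 to 1.04), over the 14178 genes whose FPKM averaged 0.5 or more. Genes called had an adjusted p below 0.05. Fits were tested on simulated data. A single gene cannot reach a two-sided exact permutation p below 0.1 with 3 samples against 3. Replicates differed by more than counting noise (chi-square per degree of freedom 12.6 to 20.4). Same-numbered samples did not deviate together (correlations of -0.0923, -0.084 and -0.0366), so the replicate block was only an alternative. Promoters came from RefSeq (GRCh38.p14).

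The genes and lists were chosen with earlier results of these data known. Text names every one of the 10 genes, then the largest called rise and fall of each related list, LXR targets that are also SREBP targets, and the 3 genes nearest in pattern to ABCA1 and NPC1. Some genes that this rule names, and some points of the plots, are not reported here, though list counts and medians include them. Tools were edgeR 4.0.16, DESeq2 1.42.0 and limma 3.58.1 in R 4.3.3, and matplotlib 3.10.9. Alternatives covered scaling, filter, tool, pseudocounts of 1 and 0.1, TPM, the replicate block and each sample left out. Fits without the filter combined with other choices were added for ABCG1 and CH25H after the data were seen.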

Additional observations from a re-analysis of the deposited data

How the results depend on the processing

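The calls of ABCA1, NPC1 and SOAT1 held in all 16 other settings, and those of NR1H2 and APOE in all but TPM. Library size alone moved the median log2 fold change of all genes tested by 0.11 and TPM by 0.20, and the share of calls that were higher went from 50.9% to 62.2% and 74.1%. With no filter, 5 of the 10 genes were higher, beside 12.5% of all 33900 genes. These sets differ in expression, since 8 of the 10 genes passed the filter but only 14178 of the 33900 did. In the reported fit, which kept the filter, 3 of the 8 were higher, beside 31.7% of all genes tested. At the study's thresholds 3 were higher in the fit with no filter, ABCA1, ABCG1 and CH25H, of which ABCG1 and CH25H lie under the filter. With TPM (limma), 5 of the 8 tested were higher, where 6934 of all 14178 genes tested were, and 0 were lower, where 2428 were. At the study's thresholds, 2 of the 8 were higher with TPM. The share of all genes past the study's thresholds was not computed for either setting. Genes of the synthesis list that were lower numbered 1 with library size alone, with a mean FPKM of at least 5, with limma on FPKM at either pseudocount and with TPM. Lower LXR targets numbered 1 with TPM. Lower genes of efflux and ester turnover numbered 3 with library size alone and with limma on log2(FPKM + 1), 2 with a mean FPKM of at least 5 and with a pseudocount of 0.1, and 1 with TPM. Over all genes, 2603 were higher and 2621 lower with a mean FPKM of at least 5, which left 6971 genes, and 6934 and 2428 with TPM. NPC2 was 0.11 with TPM. NR1H3 was 0.055 with library size alone, 0.025 and 0.040 with limma on log2(FPKM + 1) and log2(FPKM + 0.1), 0.14 with TPM and 0.057 without rhSema3C replicate 2, within a range of -0.13 to 0.057 with each sample left out. OSBP passed in 5 settings, with values of 0.15 to 0.28. Beyond the shift that each scaling gives, the cause was not tested.

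Under the replicate block, 4221 genes were higher and 4120 lower, and among the 10 genes it removed the calls of NPC2 and, with no filter, CH25H. Depth limits CH25H and ABCG1, which had 23 to 262 counts per sample.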
